A study of Mus musculus with 6 samples.

Results

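The genes of MHC class I peptide processing were examined in ileal mucosa, the lining of the distal end of the small intestine. The members were chosen by gene symbol, as all probe sets whose platform annotation gives exactly 1 of 10 symbols: Nlrc5, Psmb8, Psmb9, Psmb10, Psme1, Psme2, Tap1, Tap2, Tapbp and B2m. Of these, 9 genes were measured, by 15 probe sets, among 18193 genes of the table. Psme2 had no probe set that carried its symbol alone, and its expression is not described further. The study set Duoxa-/- mice against wild-type (wt) littermates housed with them. There were 3 Duoxa-/- pools and 3 wt pools, 1 of each from each of 3 cages, where a cage is a litter. All mice were 3-month-old females of the 129S6 strain, and each pool combined the RNA of 2 to 3 animals of 1 genotype and 1 cage on 1 array. Duoxa-/- mice lack the maturation factors that carry the dual oxidases, which release hydrogen peroxide at the apical surface of epithelia, to the cell membrane. Pooling hides the spread between animals, and the labels do not say how many animals each pool held.

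MHC class I molecules show peptides from inside the cell to CD8+ T cells. The proteasome cuts proteins into peptides, the TAP transporter moves them into the endoplasmic reticulum, and a loading complex places them on a heavy chain paired with beta-2-microglobulin. Under interferon-gamma, cells exchange the catalytic subunits of the proteasome for those of the immunoproteasome and raise the transporter, the light chain and NLRC5, the transactivator of class I genes. In the small intestine, both epithelial cells and the lymphocytes between them carry this machinery.

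Several of the genes are neighbours in the genome, and their positions are given on RefSeq GRCm38.p6. Psmb9 (17:34182030-34187330), Tap1 (17:34187556-34197225), Psmb8 (17:34198195-34201454) and Tap2 (17:34204479-34216321) lie close together in the MHC on chromosome 17, with 225, 969 and 3024 bases between one gene and the next. Psmb9 and Tap1 are read in opposite directions from these 225 bases. Tapbp (17:33919478-33929290) lies on the same chromosome, Psmb10 (8:105935728-105938392) and Nlrc5 (8:94434335-94527272) on chromosome 8, and Psme1 (14:55578494-55581527) on chromosome 14. B2m (2:122147687-122153082) lies on chromosome 2, with 145817 bases between it and Duoxa2 (2:122298900-122302885), the targeted locus.

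The promoter windows below, from 250 bases before to 50 bases after the transcription start, are shown because the genes varied together between pools; they are from RefSeq, build GRCm38.p6. Capitals mark an interferon-stimulated response element, searched as GAAA and a second GAAA after 2 bases of any kind, or a gamma-activated site, searched as TTCNNNGAA, where N is any base, both on either strand; the motifs did not overlap in these windows. The window of Tap1, which overlaps that of Psmb9 on the other strand, is shown with no match.
B2m, chr2:122147437-122147736, plus strand: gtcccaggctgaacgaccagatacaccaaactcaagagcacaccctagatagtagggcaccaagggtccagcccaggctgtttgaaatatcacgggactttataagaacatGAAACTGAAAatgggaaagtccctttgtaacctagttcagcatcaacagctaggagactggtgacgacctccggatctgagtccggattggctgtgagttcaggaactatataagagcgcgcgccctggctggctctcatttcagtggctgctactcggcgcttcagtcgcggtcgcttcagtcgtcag
Psme1, chr14:55578244-55578543, plus strand: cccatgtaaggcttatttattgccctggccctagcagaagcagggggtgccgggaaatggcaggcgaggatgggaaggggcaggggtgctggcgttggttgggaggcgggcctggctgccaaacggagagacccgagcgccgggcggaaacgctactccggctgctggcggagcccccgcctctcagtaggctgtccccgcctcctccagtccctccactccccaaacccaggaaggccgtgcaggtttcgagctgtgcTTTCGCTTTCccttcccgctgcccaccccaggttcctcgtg
Psmb8, chr17:34197945-34198244, plus strand: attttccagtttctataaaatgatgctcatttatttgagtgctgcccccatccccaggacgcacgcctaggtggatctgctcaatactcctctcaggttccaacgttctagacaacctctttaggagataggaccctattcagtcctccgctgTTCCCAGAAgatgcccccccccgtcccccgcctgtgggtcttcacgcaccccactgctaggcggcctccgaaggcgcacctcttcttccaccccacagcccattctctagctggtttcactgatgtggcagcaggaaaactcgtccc
Tap1, chr17:34187306-34187605, plus strand: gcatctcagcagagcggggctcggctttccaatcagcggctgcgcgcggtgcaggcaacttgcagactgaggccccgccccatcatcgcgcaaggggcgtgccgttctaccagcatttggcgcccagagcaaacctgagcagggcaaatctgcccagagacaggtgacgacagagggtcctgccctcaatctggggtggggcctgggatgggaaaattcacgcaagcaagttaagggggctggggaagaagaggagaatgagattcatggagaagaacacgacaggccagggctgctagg
RefSeq promoter windows were at hand for 8 of the 10 genes, with 9 windows in all. Tap2 and Nlrc5, the gene that varied most between pools, had none. Psme2, which was not measured, has overlapping windows among the 9, and the windows of Tap1 and Psmb9 share most bases. The 9 windows are thus not all separate. At least 1 of these motifs was found in 3 of these 9 windows, each of another gene, against 11.3% of 32851 windows of the same length. The response element GAAACTGAAA of B2m starts at position -139 from the transcription start, and the site TTCCCAGAA of Psmb8 at position -97. The match of Psme1 is on the opposite strand and begins at position 9, downstream of the transcription start. A match is only a run of letters, and the windows without one may hold other forms of these elements.

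The arrays were alike as a whole, with correlations of 0.994 to 0.998 between them over all probe sets. With 3 arrays a group, precision is limited by their number. All 9 genes had a mean at or above the median of all probe sets, 6.58. The markers of the ileal epithelium were bright in every pool, with 8 of 8 genes at means of 11.9 to 14.7, Fabp6 and Slc10a2 of the distal ileum among them. Duoxa2 read 5.90, 5.55 and 5.92 in the Duoxa-/- pools of cages 1, 2 and 3, against 8.81, 8.36 and 7.24 in the wt pools of these cages; whether its probe set lies in the deleted part is not stated in the labels.

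Across all 3 cages, the genes of class I peptide processing did not differ by genotype beyond the spread between pools. With limma, 0 of 9 genes passed at an adjusted p under 0.05, with 0.0% of all genes higher and 0.0% lower at this threshold. The adjusted p of the 9 genes lay between 0.811 and 0.991, and 0 of them had an unadjusted p under 0.05, against 5.53% of all genes. The median difference, Duoxa-/- minus wt, was -0.02 over the 9 genes and -0.01 over all genes, with 4 genes higher and 5 lower. Duoxa-/- and wt pools overlapped in all 9 genes, while in 11.5% of all genes they did not. With cage as a block, 0 of 9 genes passed as well (0.0% of all genes). Over 15 probe sets, 0 passed (0.0% of 45037 probe sets).

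Behind these means near 0, the genotype difference had opposite signs in different cages. In cage 1, all 9 genes were higher in the Duoxa-/- pool than in the wt pool, with a median difference of 0.42. In cages 2 and 3, all 9 were lower in the Duoxa-/- pool, with median differences of -0.21 and -0.26. Over all genes, 50.5% were higher in cage 1, 57.6% lower in cage 2 and 49.9% lower in cage 3, with medians of 0.0032, -0.03 and 0.00. The combination of the 3 signs seen in all 9 genes occurred in 13.7% of all genes, and in 14.7% of the 11608 genes at or above the median of all probe sets. The same sign in all 3 cages was seen in 0 of the 9 genes, against 30.1% of all genes. Since the genes vary together and share the same arrays, 9 genes are not 9 separate observations of this combination.

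The Duoxa-/- pool of cage 1 and the wt pool of cage 2 were the highest of the 6 pools in all 9 genes, an arrangement found in 11.3% of all genes. The lowest pool was the wt pool of cage 1 in 4 genes (26.8% of all genes), the Duoxa-/- pool of cage 3 in 4 and the Duoxa-/- pool of cage 2 in the case of Tapbp.

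**Figure D1:**
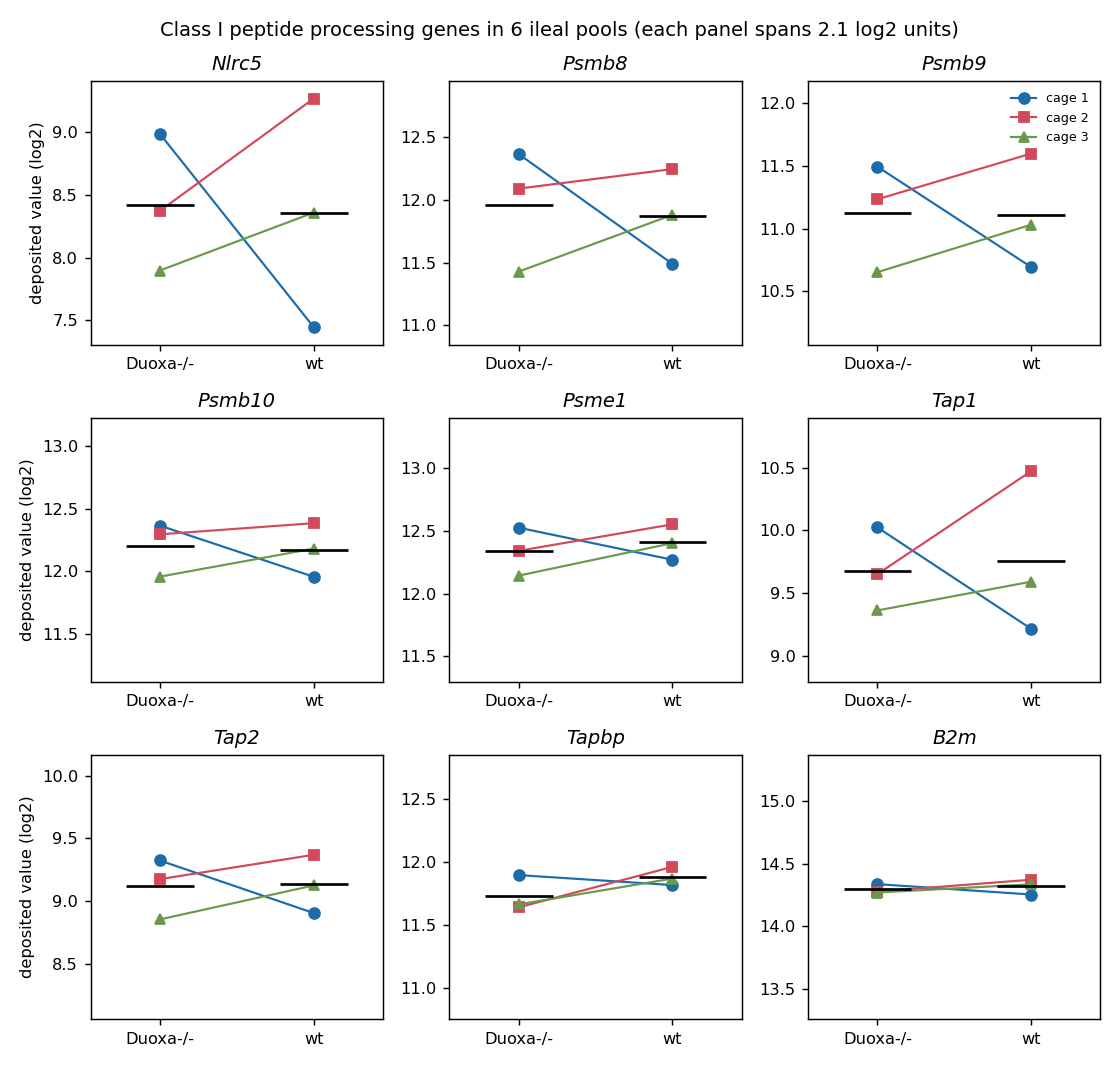
Deposited log2 values of the 9 genes, with the Duoxa-/- pools on the left and the wt pools on the right of each panel; a line joins the pools of a cage and a black bar marks each group mean of 3 pools. The line of cage 1 runs against those of cages 2 and 3 in all 9 panels, and the spread is widest for Nlrc5, with a range of 1.82.

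Nlrc5, the transactivator of class I genes, varied most between pools. It read 8.99, 8.37 and 7.90 on the log2 scale in the Duoxa-/- pools of cages 1, 2 and 3, against 7.45, 9.27 and 8.36 in the wt pools. The highest and the lowest value were both from wt pools, and the Duoxa-/- pools lay between them. The group means were 8.42 ± 0.55 in Duoxa-/- pools and 8.36 ± 0.91 in wt pools (SD, n = 3 each), a difference of 0.06 (95% confidence interval -0.94 to 1.06). Within cage 1, Nlrc5 was 2.91-fold higher in the Duoxa-/- pool (log2 difference 1.54). It differed by -0.89 in cage 2 and by -0.46 in cage 3.

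The catalytic subunits of the immunoproteasome had the same signs by cage as Nlrc5, while the order of all 6 pools was that of Nlrc5 only for Psmb10. Psmb8, the beta5i subunit, read 12.36, 12.09 and 11.43 in the Duoxa-/- pools of cages 1 to 3, against 11.49, 12.24 and 11.88 in the wt pools. It was the only gene of the 9 that was highest in the Duoxa-/- pool of cage 1. Its group means were 11.96 ± 0.48 and 11.87 ± 0.38 in Duoxa-/- and wt pools (SD, n = 3 each), a difference of 0.09 (SE 0.26). The differences within cages were 0.88, -0.16 and -0.45. A second, dimmer probe set of Psmb8, whose name marks possible cross-hybridisation, gave 0.69, -0.18 and -0.23 and so the same signs.

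Psmb9, the beta1i subunit, read 11.49, 11.23 and 10.65 in the Duoxa-/- pools, against 10.69, 11.60 and 11.03 in the wt pools. The groups overlapped throughout, with a difference of 0.02 (SE 0.26), and 0.80, -0.36 and -0.38 were its differences within cages. Psmb10, the beta2i subunit, varied less, with 12.37, 12.30 and 11.96 in the Duoxa-/- pools, against 11.96, 12.38 and 12.18 in the wt pools. Its difference was 0.03 (SE 0.14), with 0.41, -0.09 and -0.22 within cages. Psme1, a subunit of the PA28 activator that opens the proteasome core, read 12.53, 12.34 and 12.14 in the Duoxa-/- pools, against 12.27, 12.55 and 12.40 in the wt pools. Its range over the 6 pools was 0.41, and its difference was -0.07 (SE 0.12).

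The constitutive catalytic subunits, which the immunoproteasome subunits replace, did not share these signs by cage. Psmb5, the counterpart of Psmb8, differed by 0.12, 0.24 and -0.01 in cages 1, 2 and 3, and Psmb6, the counterpart of Psmb9, by 0.11, 0.18 and -0.01. Psmb7, the counterpart of Psmb10, read 10.28, 10.33 and 10.13 in the Duoxa-/- pools, against 11.32, 10.76 and 10.15 in the wt pools. Its difference was -0.50 (SE 0.25, limma adjusted p = 0.811), and it was lower in the Duoxa-/- pool by 1.04 in cage 1 and by 0.43 in cage 2, with almost no difference in cage 3. Of 14 other core subunits and proteasome factors, all were higher in the Duoxa-/- pools of cages 1 and 2, and 6 were higher in cage 3. Over all cages their median difference was 0.12, with 0 passing the test and 14 higher. The signs by cage of the class I processing genes were seen in 0 of 14, against 13.7% of all genes. Psme3, which forms an alternative activator, differed by 0.23 (SE 0.10) and Psma7, a subunit of the outer ring, by 0.17 (SE 0.07).

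Tap1 and Tap2 form the peptide transporter. Tap1 read 10.02, 9.65 and 9.36 in the Duoxa-/- pools, against 9.21, 10.47 and 9.59 in the wt pools. It spanned 1.26 over the 6 pools, or 2.39-fold, from the wt pool of cage 1 at the bottom to that of cage 2 at the top. Tap1 and Nlrc5 were the 2 genes with a range of at least 1, as were 1.84% of all genes. The difference of Tap1 was -0.08 (SE 0.30), with 0.81 in cage 1, -0.82 in cage 2 and -0.23 in cage 3. The other 3 probe sets of Tap1 were dim, with means of 3.72 to 5.65 below the median of all probe sets, and 2 of them had another sign in cage 3.

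Tap2 read 9.32, 9.18 and 8.85 in the Duoxa-/- pools, against 8.91, 9.37 and 9.13 in the wt pools. Its range was 0.51, the median of the 9 genes, against a median range of 0.33 over all genes. The difference of Tap2 was -0.02 (SE 0.15), with 0.42, -0.19 and -0.27 within cages.

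Tapbp, or tapasin, which bridges the transporter and the class I heavy chain, read 11.90, 11.64 and 11.66 in the Duoxa-/- pools, against 11.82, 11.96 and 11.87 in the wt pools. Of the 9 genes it had the smallest limma adjusted p between genotypes, 0.811, with a difference of -0.15 (95% interval -0.37 to 0.07). Its second probe set did not follow: it gave -0.23, 0.24 and -0.05 in cages 1, 2 and 3, where the brighter one gave 0.08, -0.32 and -0.21.

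B2m, the light chain of every class I molecule, was nearly level over the pools. It read 14.34, 14.28 and 14.27 in the Duoxa-/- pools, against 14.25, 14.37 and 14.33 in the wt pools. Its range of 0.12 was the smallest of the 9 genes, on a value near the top of the scale, where array signals can be compressed. The difference was -0.03 with a 95% interval of -0.20 to 0.14, and a second probe set gave -0.02. Duoxa2, at the other end of the interval between these genes, differed by -2.34 (SE 0.34, limma adjusted p = 0.760). Of the genes between B2m and Duoxa2, Trim69 (-0.21, SE 0.09) and Terb2 (0.01, SE 0.08) were measured, both at values below 6.58 and neither past the test (limma adjusted p of 0.811 and 0.983).

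**Figure D2:**
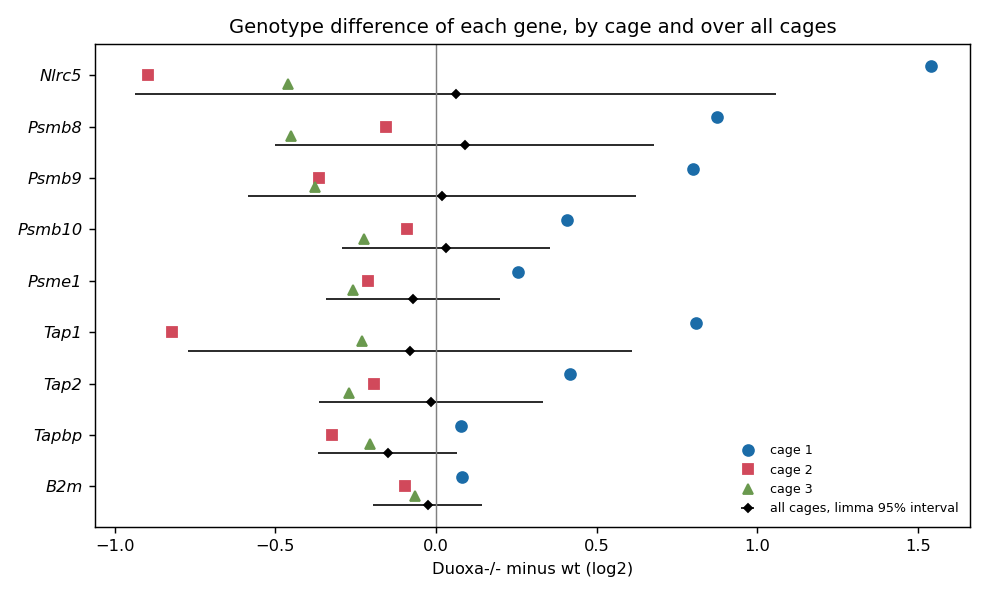
Difference between the Duoxa-/- and the wt pool of each cage (coloured symbols) and the limma estimate over all cages with its 95% confidence interval (black), in log2 units. All 9 genes lie right of 0 in cage 1 and left of 0 in cages 2 and 3, and all 9 intervals include 0.

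The genotype difference of each cage was then set against the mean difference of the other 2 cages. The fit leaves 1 residual degree of freedom per gene, and earlier results had already shown that cage 1 differs, so the contrast of cage 1 is not an independent test. With limma, 0 of 9 genes passed at an adjusted p under 0.05 in the contrast of cage 1 (0.0% of all genes). At an unadjusted p under 0.05, 7 of 9 genes stood out, all with a larger difference in cage 1, against 10.3% of all genes in either direction and 5.4% in this one. In the contrast of cage 2, 0 of 9 genes passed (0.0% of all genes) and 1, Tap1, had an unadjusted p under 0.05 (3.66% of all genes), with a smaller difference in cage 2; 0 had one with a larger difference (1.82% of all genes). In that of cage 3, 0 of 9 passed (0.0% of all genes) and 0 had an unadjusted p under 0.05 (2.53% of all genes in either direction, 1.74% with a larger difference in cage 3).

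For Nlrc5, the difference in cage 1 exceeded that of the other cages by 2.22 (95% interval 1.68 to 2.75, limma adjusted p = 0.105), and it ranked 7 among all genes by p. The contrast was 1.33 for Tap1 (adjusted p = 0.228), 1.18 for Psmb8 (adjusted p = 0.169) and 1.17 for Psmb9 (adjusted p = 0.158), each by limma. It was 0.65 for Tap2, 0.56 for Psmb10 and 0.49 for Psme1, while the intervals of Tapbp (-0.06 to 0.75) and B2m (-0.23 to 0.56) included 0. The median contrast was 0.65 over the 9 genes and 0.03 over all genes. With the mean of all probe sets, the contrast was 0.396 for Tap1 and 0.0060 for Tapbp, which have further probe sets, and Tap1 no longer had an unadjusted p under 0.05. The call for Nlrc5 depended on the processing: it passed with the mean of all probe sets (limma adjusted p = 0.0419, 0.055% of all genes called), without probe sets marked for cross-hybridisation (0.0483, 0.0362% called), with quantile normalization (0.0188, 0.159% called) and with an intensity trend in the variance (0.0195, 0.209% called). With the trend, Psmb9 (limma adjusted p = 0.0292) and Psmb8 (0.0422) passed as well. Without dim genes, no member passed (smallest adjusted p 0.175, 0.0% called). Nlrc5 has only 1 probe set, so these settings did not measure it anew. Its contrast stayed at 2.22 in all of them but quantile normalization, where it was 2.195. What differed otherwise was the variance model or the other genes in the fit.

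**Figure D3:**
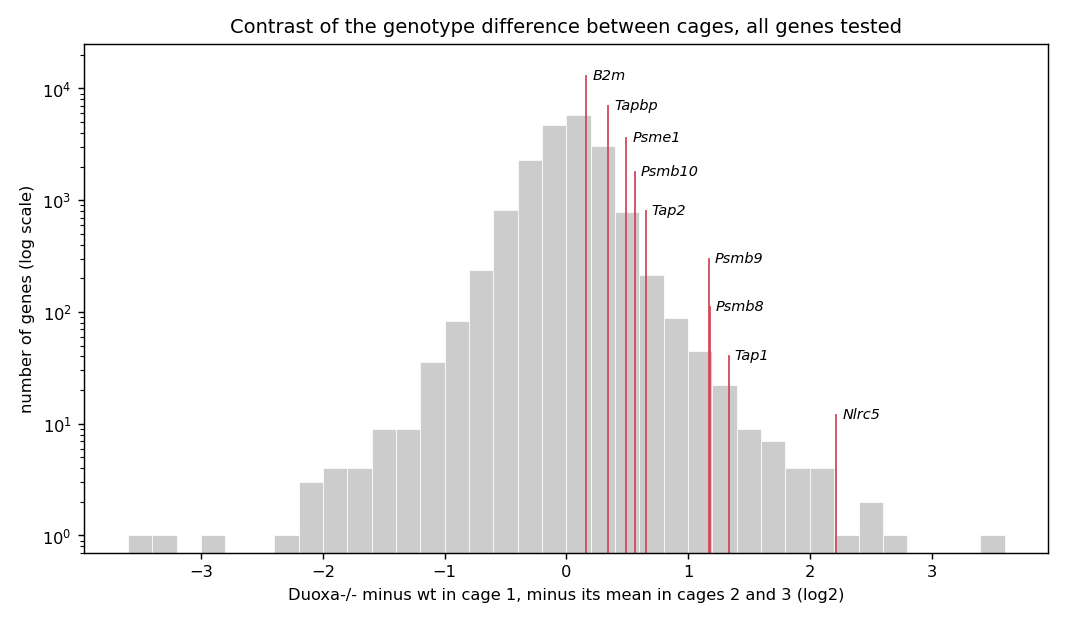
Histogram, on a log scale, of the contrast between the genotype difference in cage 1 and its mean in cages 2 and 3 for all 18193 genes, in log2 units; red lines mark the 9 genes, with heights chosen only to separate the labels. Nlrc5 stands at 2.22, Tap1, Psmb9 and Psmb8 between 1.17 and 1.33, and B2m at 0.16, near the middle of all genes.

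In limma's F-test between the 3 cages with genotype in the fit, 0 of 9 genes passed (0.011% of all genes), with adjusted p from 0.859 to 0.995, and 0 had an unadjusted p under 0.05 (6.21% of all genes). Without the Duoxa-/- pool of cage 1, Nlrc5 had an adjusted p of 0.0454 (0.291% of all genes called). That fit leaves cage 1 with the wt pool alone, the lowest pool for Nlrc5, and assumes that this pool varies like those of the other cages. Without the wt pool of cage 1, 0 of 9 genes passed (smallest adjusted p 0.110, 0.165% of all genes called).

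The 9 genes varied together from pool to pool. Each gene was compared with the mean of the other 8 over the 6 pools: Pearson's r lay between 0.884 and 0.987 for 8 genes and was 0.603 for Tapbp. The 6 pools share cages and litters, so these values describe the arrays and carry no p. Outside the set, the 10 genes with the most similar profile, among 2410 genes at or above the median of all probe sets with a range of at least 0.5, had r from 0.977 to 0.989 over the 6 pools. They included the interferon-induced GTPases Irgm2, Iigp1, Gbp8 and Ifi47, and Ubd, an interferon-induced ubiquitin-like modifier that targets proteins to the proteasome. Ubd read 9.89, 8.69 and 7.98 in the Duoxa-/- pools of cages 1 to 3, against 7.66, 10.40 and 8.82 in the wt pools, a range of 2.74. Upp1, a uridine phosphorylase, Calhm6, Traf3ip3, N4bp2l1 and Plaat3 completed the 10.

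Among genes of the interferon-gamma axis, 18 were measured. Of these, 9 were higher and 9 lower over all cages, with a median of -0.01 and 0 past the test. The signs by cage of the class I processing genes were seen in 6 of 18, against 13.7% of all genes. Ifng, the cytokine itself, was listed below the median of all probe sets at 5.14, 5.17 and 4.46 in the Duoxa-/- pools, against 4.41, 5.38 and 4.87 in the wt pools. Irf1, a transcription factor of the interferon response, averaged 11.72 ± 0.26 in Duoxa-/- pools and 11.87 ± 0.34 in wt pools (SD, n = 3 each). Within cages, Irf1 differed by 0.39, -0.59 and -0.25. In the contrast of cage 1 with the other cages, 0 of 18 genes passed, and 5 had an unadjusted p under 0.05 with a larger difference in cage 1, against 5.4% of all genes. These included Ifng, with a contrast of 1.04, Irf1 with 0.81 and Irf8, a related factor, with 0.65 (limma adjusted p of 0.169, 0.293 and 0.337). The smallest p values of the list belonged to the CCAAT-binding subunit Nfyb (0.28, SE 0.09) and to Creb1 (0.24, SE 0.10), neither past the test (limma adjusted p = 0.811 for both).

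The processed peptides are loaded on class I heavy chains. The list used here is wider: it includes H2-T3, Mr1 and Cd1d1, so not every gene in it takes such peptides. Of 11 measured, from 24 listed, 2 were higher and 9 lower in Duoxa-/- pools over all cages. Their median was -0.09 against -0.01 over all genes, and 0 passed. In cage 3, 11 of 11 were lower, while 6 were higher in cage 1 and 3 in cage 2. The signs by cage of the class I processing genes were seen in 4 of 11, against 13.7% of all genes. In the limma contrast of cage 1, 0 of 11 passed. An unadjusted p under 0.05 with a larger difference in cage 1 was found for 2, against 5.4% of all genes. The classical heavy chains H2-K1 and H2-D1 differed by -0.16 (SE 0.08) and -0.09 (SE 0.07), and in each cage the Duoxa-/- pool had the lower value of both, cage 1 included. H2-Bl (-0.24, SE 0.09) and H2-T24 (0.29, SE 0.11), nonclassical genes, had the smallest p of the list. H2-T24 was dim, with group means of 6.25 in Duoxa-/- and 5.97 in wt pools, below the median of all probe sets, 6.58. The H2 paralogs are similar in sequence, so a probe set may read several of them.

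Of the other loading partners, 4 of 6 were higher and 2 lower, with a median of 0.03 and 0 past the test. Erap1, the aminopeptidase that trims peptides in the endoplasmic reticulum, differed by 0.45, -0.08 and -0.19 in cages 1, 2 and 3, and Tapbpl, a relative of tapasin that edits the loaded peptides, by 0.37, -0.09 and -0.28, the signs seen in the class I processing genes. The general chaperones did not share these signs. Calr differed by -0.11 (SE 0.12) over all cages, Canx by 0.09 (SE 0.09), and Pdia3, the disulfide isomerase of the loading complex, by 0.18 (SE 0.08).

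Many T cell markers and the general leukocyte markers had the signs by cage of the class I processing genes. All 12 measured T cell and intraepithelial lymphocyte genes, of 13 listed, had means above the median of all probe sets, the lowest at 6.82. The mean of these 12 genes, each centred on its own mean, was 0.19, -0.18 and -0.24 in the Duoxa-/- pools of cages 1, 2 and 3, against -0.32, 0.46 and 0.09 in the wt pools. The same mean over the 9 class I processing genes was 0.26, 0.01 and -0.30 in the Duoxa-/- pools, against -0.32, 0.36 and -0.02 in the wt pools. Both lists were lowest in the wt pool of cage 1 and highest in the wt pool of cage 2. Of the 12 T cell genes, 8 had the signs by cage of the class I processing genes, against 13.7% of all genes. Gzmb, granzyme B of cytotoxic cells, differed by 1.37, -1.45 and -0.95 in cages 1, 2 and 3, and Cd8a by 0.51, -1.22 and -0.43. The other 4 T cell genes had other signs: Cd4 differed by -0.45, -0.19 and 0.02 in cages 1, 2 and 3, Cd2 by 0.51, 0.06 and 0.01, and Cd3e and Thy1 by -0.06 and -0.0059 in cage 1. These genes were named after their values were seen. Of 4 general leukocyte genes, 4 had these signs (13.7% of all genes). Their list means were 0.26, -0.01 and -0.16 in the Duoxa-/- pools, against -0.32, 0.18 and 0.04 in the wt pools. In the limma contrast of cage 1, 9 of 12 T cell and 3 of 4 leukocyte genes had an unadjusted p under 0.05. All had a larger difference in cage 1, against 5.4% of all genes, and 0 passed after adjustment. For Gzmb the contrast was 2.57 (limma adjusted p = 0.105), against 2.22 for Nlrc5. In these bulk pools, fewer T cells and less of each RNA per cell cannot be told apart, and the part of T cells and other leukocytes in the differences of the class I processing genes was not tested.

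Smooth muscle genes had list means of -0.36, 0.08 and -0.13 in the Duoxa-/- pools, against 0.50, -0.15 and 0.07 in the wt pools, with 7 of 7 lower in cage 1, higher in cage 2 and lower in cage 3. The wt pool of cage 1, which was lowest in 4 of the 9 genes, was thus the highest in smooth muscle genes. B cell genes lay between -0.25 and 0.17 over the 6 pools and plasma cell genes between -0.18 and 0.16. Macrophage and dendritic cell genes lay between -0.22 and 0.14. None of the measured genes of these 3 lists but 2 plasma cell genes had the signs by cage of the class I processing genes, against 13.7% of all genes. The B cell and plasma cell lists were still highest in the Duoxa-/- pool of cage 1 and lowest in the wt pool of cage 1. In the limma contrast of cage 1, an unadjusted p under 0.05 was found in 2 of 5 B cell and 1 of 4 plasma cell genes. It was also found in 1 of 7 macrophage and dendritic cell genes. All had a larger difference in cage 1, against 5.4% of all genes, and 0 passed after adjustment. The epithelial list stayed within -0.04 and 0.03 in all 6 pools. The part of smooth muscle in the class I values was not tested.

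**Figure D4:**
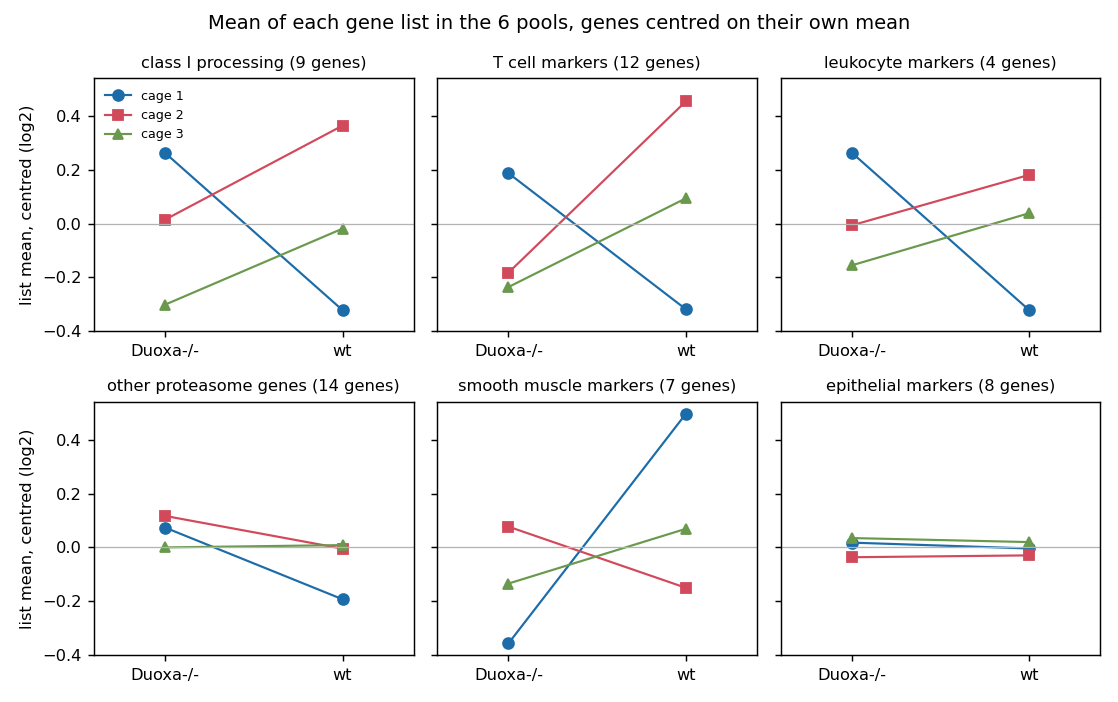
Mean log2 value of 6 gene lists in each pool, with every gene centred on its own mean over the 6 pools, Duoxa-/- pools on the left and wt pools on the right; a line joins the pools of a cage. The class I processing, T cell and leukocyte lists cross in cage 1 against cages 2 and 3, smooth muscle runs the other way in cages 1 and 2, and the epithelial list stays within -0.04 and 0.03.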

How the data were processed

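Total RNA of ileal mucosa, pooled per cage and genotype, was labelled with biotin and hybridised to 6 single-colour arrays, per the labels' protocols. The deposited values are log2 summaries per probe set; per the submitters' processing notes, the authors used affy and RMA. RMA equalises the arrays and compresses differences of dim probe sets, and the array signals of very bright ones can be compressed before it. Their versions are not stated, and scanner intensities and detection calls were not used here.

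Of 45101 rows, 64 control probe sets were left out. A gene was represented by its brightest probe set among those with 1 symbol. Differences were tested over 18193 genes with limma 3.58.1 in R 4.3.3 (lmFit, eBayes, two-sided, Benjamini-Hochberg), as Duoxa-/- minus wt without a cage term. SE and intervals come from limma, and each SD covers 3 pools. P-values of the genotype fit set the difference against the spread between pools of a genotype. In the contrast of 1 cage, they set it against the disagreement between the other 2 cages and the variance that limma shares over all genes. The fits were tested on simulated data with known changes. Tables and figures were made with Python 3.11.15, pandas 2.3.3 and matplotlib 3.10.9.

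Each cage held 1 litter, as the design text says, so cages pair the pools. Deviations from the group means correlated with r = -0.18, 0.16 and 0.34 within cages 1, 2 and 3, against -0.44 to 0.40 between cages.

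The members, lists and tests were chosen with earlier results of these data known. The text names all members, the genes of each context list by smallest p or by role, and the 10 genes most similar to the members. Alternatives were the cage block, other probe set rules, quantile normalization, a filter on dim genes, array weights, a variance trend, and fits without single pools or cages.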

Additional observations from a re-analysis of the deposited data

How the results depend on the processing

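For the genotype difference, 0 of the 9 genes passed in limma under any alternative tried (smallest adjusted p 0.680), the replicate block by cage included, which changed no call (0 of 9, adjusted p 0.768 to 0.987); 6 of the 9 genes were left without cross-hybridising probe sets. The median over the genes lay between -0.26 and 0.14. Signs near 0 changed with the cages used; the cause was not tested. Without both pools of cage 1 the differences were -0.30 for Psmb8, -0.37 for Psmb9, -0.16 for Psmb10 and -0.68 for Nlrc5. Without cage 2 they were 0.0085 for B2m, 0.29 for Tap1 and 0.074 for Tap2, and without cage 3 they were 0.11 for Tap2 and 0.0222 for Psme1. Tap1 was 0.0114 with the mean of all probe sets, Psmb9 was -0.0041 with quantile normalization and Tap2 was 0.0117 with array weights. Leaving out 1 pool at a time gave -0.35 to 0.28 for Tap1, -0.13 to 0.12 for Tap2, -0.11 to 0.36 for Psmb8, -0.19 to 0.26 for Psmb9, -0.0768 to 0.16 for Psmb10, -0.17 to 0.0252 for Psme1 and -0.39 to 0.52 for Nlrc5. In the F-test between cages, 0 to 1 genes passed when 1 pool was left out. The contrast of cage 1 called 1 gene with the mean of all probe sets, 1 without cross-hybridising probe sets, 1 with quantile normalization and 3 with a variance trend, against 0 in the fit as reported. The count of genes higher in cage 1 and lower in cages 2 and 3 was 7 of 9 with the mean of all probe sets and 6 of 6 without cross-hybridising probe sets, alternatives chosen for this count after seeing the data. With 3 arrays a group and 1 residual degree of freedom in the contrast, precision is limited by the number of arrays.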

Other observations

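Members of the interferon-gamma axis outside the class I genes, chosen after their values were seen, did not all have the signs by cage described above. Ifngr2, a chain of the interferon-gamma receptor, ran the opposite way: it read 10.32, 11.05 and 10.90 in the Duoxa-/- pools of cages 1, 2 and 3, against 10.77, 10.26 and 10.78 in the wt pools. Its lowest values were thus in the Duoxa-/- pool of cage 1 and the wt pool of cage 2, the pools where the class I processing genes were highest. Its contrast of cage 1 with the other cages was -0.90 (limma adjusted p = 0.392). Socs1, an inhibitor of interferon signalling, was highest in the Duoxa-/- pool of cage 2, at 7.07, against 6.19 in the wt pool of that cage. Its differences in cages 1 and 3 were 0.06 and -0.21. Socs1 was dim, with group means of 6.58 in Duoxa-/- and 6.34 in wt pools, close to the median of all probe sets, 6.58.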
